A study of Mus musculus with 18 samples.

Results

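Duodenal crypts from WT mice were followed over the first days after plating, when they close up and grow into enteroids, which are small epithelial organoids with their own stem cell zone. The libraries described here are the WT enteroids alone, 3 collected at 24 h (day 1) and 3 at 72 h (day 3), which is 6 of the 18 libraries of the series. They were chosen by genotype and day as labelled, and each day 1 library was compared with the day 3 library of the same mouse. The WT mice carried both functional copies of Mtgr1 (Mtgr1+/+) and were 8 to 12 weeks old. Crypts had been plated in Matrigel, a basement membrane gel, under ENR medium, which supplies epidermal growth factor, the BMP antagonist Noggin and the Wnt amplifier R-spondin, and the labels name no drug for any group. Part of each culture was taken at day 1 and the rest at day 3. The other 12 libraries are WT crypts and Mtgr1-/- crypts and enteroids of the same 2 days. WT crypts are used below as a reference level and Mtgr1-/- enteroids for 1 comparison, to ask where the change over time differs between genotypes. All groups are bulk RNA from whole cultures, 1 library per mouse and time, so that fewer cells of a type and less RNA per cell cannot be told apart. The time points differ in days of culture and also in collection and, possibly, library batch, and these cannot be told apart.

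The small intestinal epithelium is renewed from stem cells at the crypt base, which are kept by Wnt signals and sit between Paneth cells, the makers of lysozyme and defensins. Their daughters divide a few times and become absorptive enterocytes, with a brush border of microvilli and digestive enzymes, or goblet, enteroendocrine and tuft cells. After injury or dissociation, epithelium can pass through a regenerative state in which genes of fetal-like "revival" cells and targets of the transcription regulator YAP are expressed, before crypt base stem cells are restored.

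The 6 libraries held between 22035316 and 28207843 reads on genes. Of 16414 genes present in the tables of all time points, 12703 reached an average of 10 normalized counts over the 6 libraries and entered the limma fit, which had the mouse as a block. At an adjusted p below 0.05, 3552 genes differed between the days, 28.0% of those tested. Of these, 1641 (12.9%) were higher and 1911 (15.0%) lower at day 3, and the median log2 fold change of all genes was 0.01. With libraries scaled by their total count, which moved the median by 0.06, the split was 1860 higher and 1439 lower. A change of at least 2-fold was found in 616 called genes (4.85%), of which 228 rose (1.79%) and 388 fell (3.05%). The values of the days did not overlap in 42.2% of all tested genes, with day 3 higher in 20.4% and lower in 21.8%. The first principal component, with 58.2% of the variance, separated the days, and the day 1 library of mouse 2 was the day 1 library nearest to day 3 on it. The second, with 22.1%, separated mouse 3, whose libraries held 11341 and 14609 normalized counts of Xist against at most 20.8 in the others, while Ddx3y of the Y chromosome was at 1284 or above in mice 1 and 2 and at most 1.01 in mouse 3. Mouse 3 thus had the female and the other 2 mice the male pattern at both days. Leaving out mouse 1 lowered the number of called genes to 1594, against 2667 without mouse 2 and 2769 without mouse 3. For each count of 4 or more members below, its range over the 16 alternative settings is therefore given in parentheses. The lowest count came in most lists from limma without a variance trend.

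Epithelial markers were abundant at both days. Epcam, an adhesion molecule of all epithelial cells, was at 27020, 25012 and 24962 normalized counts at day 1 and at 24296, 26594 and 25323 at day 3. Of 6 epithelial markers 4 fell (3 to 4), Krt18 and Krt8 by 1.04 and 0.97 on the log2 scale, Vil1 by 0.70 and Cdh1 by 0.29. The mRNAs of mesenchymal cells were near the floor of detection. Col1a1, Pdgfra, Acta2 and Myh11 reached at most 3.5 normalized counts in any enteroid library, on the scale shared with WT crypts. Lymphocyte mRNAs were low at day 1 and lower at day 3, and their values stand beside the interferon genes below.

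**Figure D1:**
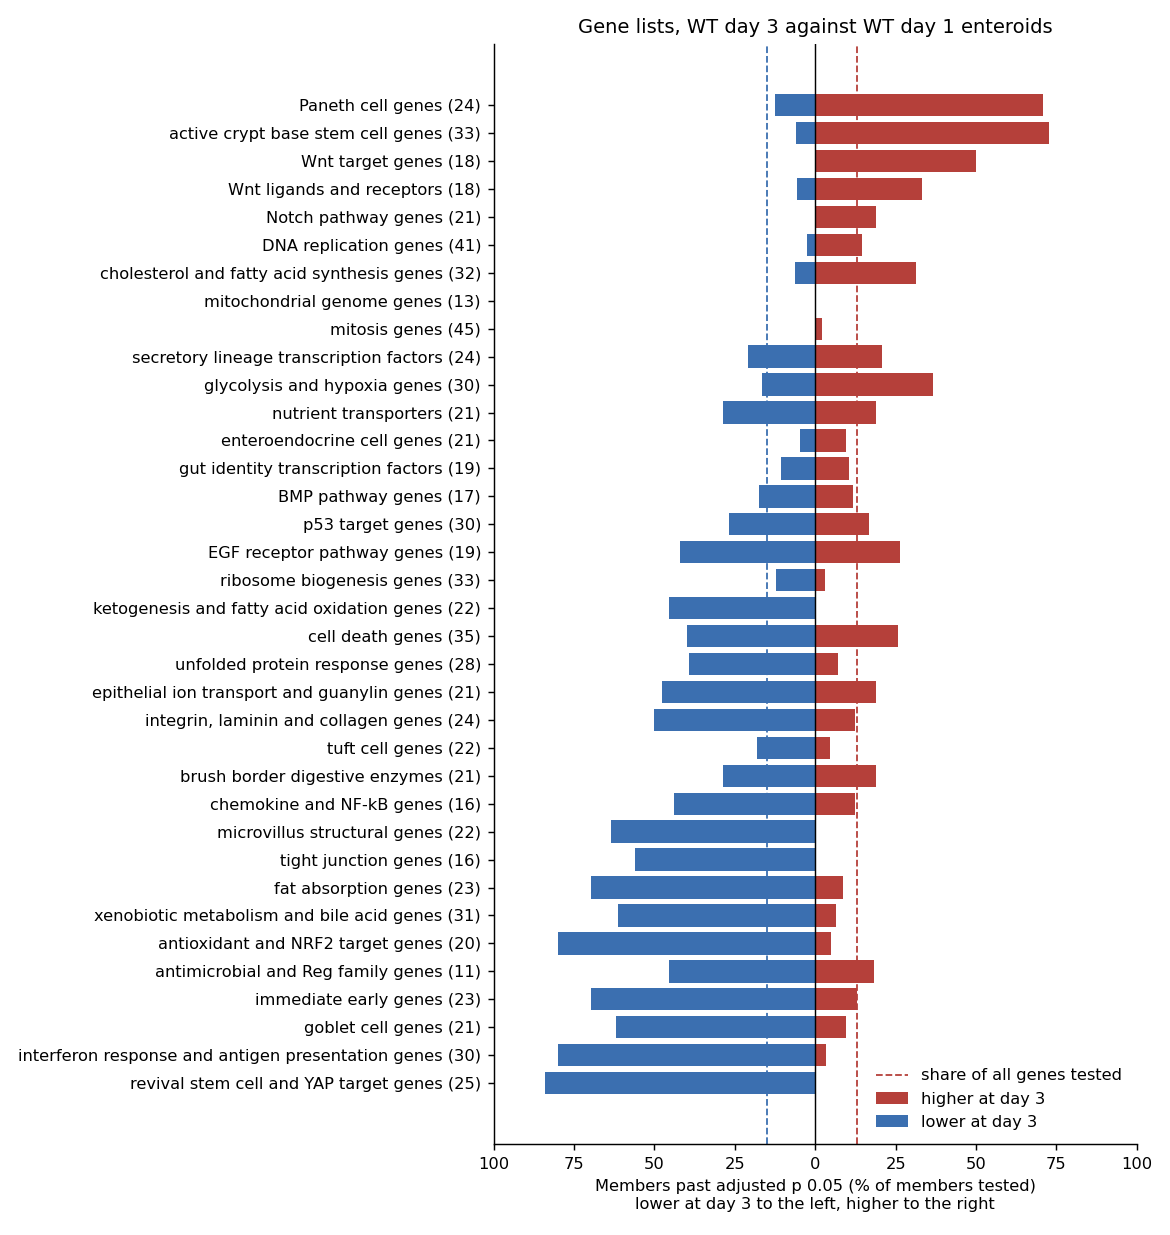
Share of the tested members of each gene list shown (number of members in parentheses) that were past adjusted p 0.05 and higher (red, to the right) or lower (blue, to the left) at day 3 than at day 1 in WT enteroids. Lists of few tested members, such as keratins (median -0.97), and marker lists, such as immune cell markers (-2.39), are not shown. Dashed lines mark the shares over all 12703 genes, 12.9% higher and 15.0% lower, and lists are ordered by their median log2 fold change. Among the lists shown, stem cell and Paneth cell genes stand at the top and revival, interferon and goblet cell genes at the bottom.

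Genes of crypt base stem cells rose from day 1 to day 3. Lgr5, the R-spondin receptor that marks these cells, was at 807, 1015 and 906 normalized counts in the 3 mice at day 1 and at 2470, 1965 and 1478 at day 3. All day 3 libraries lay above all day 1 libraries, a rise of 1.09 ± 0.14 on the log2 scale (SE, n = 3 mice, adjusted p = 0.000468). Lgr5 lies on chromosome 10 of GRCm38, from 115450311 to 115587780 on the minus strand. Olfm4, a secreted glycoprotein of the same cells (chromosome 14, 79984081 to 80023139, plus strand), was at 48115, 42963 and 19513 at day 1 and at 88379, 81218 and 70702 at day 3. It rose by 1.22 ± 0.19 on the log2 scale (adjusted p = 0.00138). The days did not overlap, and mouse 3 started lowest and changed most. Larger rises were those of Gkn3, a gastrokine used as a stem cell marker, by 1.76 ± 0.17, and Slc14a1, a urea transporter, by 1.45 ± 0.11. Gkn3 moved from 136, 186 and 77.2 to 435, 471 and 382.

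Of the 33 stem cell genes 24 rose (14 to 24) and 2 fell (0 to 2), with a median log2 fold change of 0.36 against 0.01 over all genes. The median was 0.44, 0.44 and 0.38 in mice 1, 2 and 3. Ascl2, the transcription factor that maintains stem cell fate, rose by 0.68 and Smoc2, a matricellular protein, by 0.88, each with no overlap between the days. The 2 members that fell were Phlda1, with a log2 fold change of -0.50, and Lgr4, the R-spondin receptor expressed more widely in the crypt, with -0.25. Among 4 genes of reserve or position +4 cells, Tert (0.89), Lrig1 (0.25) and Hopx (0.22) rose and Bmi1 did not pass the test (0.12). This count of 3 fell to 0 without mouse 1, as it did without a variance trend, and to 1 without mouse 2 or mouse 3.

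Wnt target genes also rose, but most tested members of this list are stem cell list members too, such as Lgr5, Ascl2, Axin2, Rnf43 and Sox9. The rises of the lists are therefore not separate results. Axin2, the negative feedback regulator of the pathway, rose from 3182, 2993 and 2167 to 5195, 5203 and 4531 normalized counts (log2 fold change 0.86 ± 0.08, adjusted p = 7.1e-05). Of 18 Wnt targets 9 rose (5 to 10) and none fell, a count of 0 that became 1 without mouse 2 and with array weights, which give each library its own weight. The only members outside the stem cell list that rose were Myc by 0.31 and the matrilysin gene Mmp7 by 0.34. Ccnd1 (0.18) and Cd44 (-0.21) did not pass. Among 18 ligands, receptors and secretion factors tested, 6 rose (2 to 6), among them the receptors Fzd2 by 1.38 and Fzd7 by 0.53 and the Wnt acyltransferase Porcn by 0.75. Wnt3, the Paneth cell ligand, was at 223, 220 and 188 at day 1 and 208, 213 and 183 at day 3 and did not differ beyond its spread (adjusted p = 0.752). The Notch list had 4 of 21 members higher (3 to 7), 19.0% against 12.9% of all genes, and none lower under any of the 17 settings. They were Dll3 (1.94), Jag2 (0.83), Hes1 (0.67), the effector that holds back secretory fate, and the receptor Notch1 (0.60). The ligands Dll1 and Dll4, which secretory cells present to stem cells, had log2 fold changes of 0.06 and -0.07 and did not pass.

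Nearly all mitosis genes failed the test across the same interval. Mki67, the Ki67 antigen of cycling cells, was at 16784, 16036 and 15876 normalized counts at day 1 and at 17464, 15605 and 17293 at day 3 (log2 fold change 0.05 ± 0.08, adjusted p = 0.708). The groups overlapped, and Cdk1 and Ccnb1, the kinase and cyclin of mitotic entry, likewise had changes of 0.00 and -0.14 that did not pass. Of 45 mitosis genes 1 rose, the microtubule regulator Stmn1 by 0.55 ± 0.07, none fell, and the median was 0.05. Under quantile normalization 6 rose. Of 41 DNA replication genes 6 rose (1 to 13), 14.6% against 12.9% of all genes. The 1 that fell was Rrm2 of ribonucleotide reductase, by 0.36, and the median was 0.10. The 13 at the top of that range came from total count scaling and from quantile normalization, and Pcna (-0.01) and Mcm2 (0.12) did not pass under limma with TMM. Among 6 cell cycle inhibitors, Cdkn1a (p21) fell by 0.53 and Cdkn2b (p15) by 0.60, while Cdkn1b (p27) rose by 0.44 and Cdkn2d (p19) by 0.55.

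**Figure D2:**
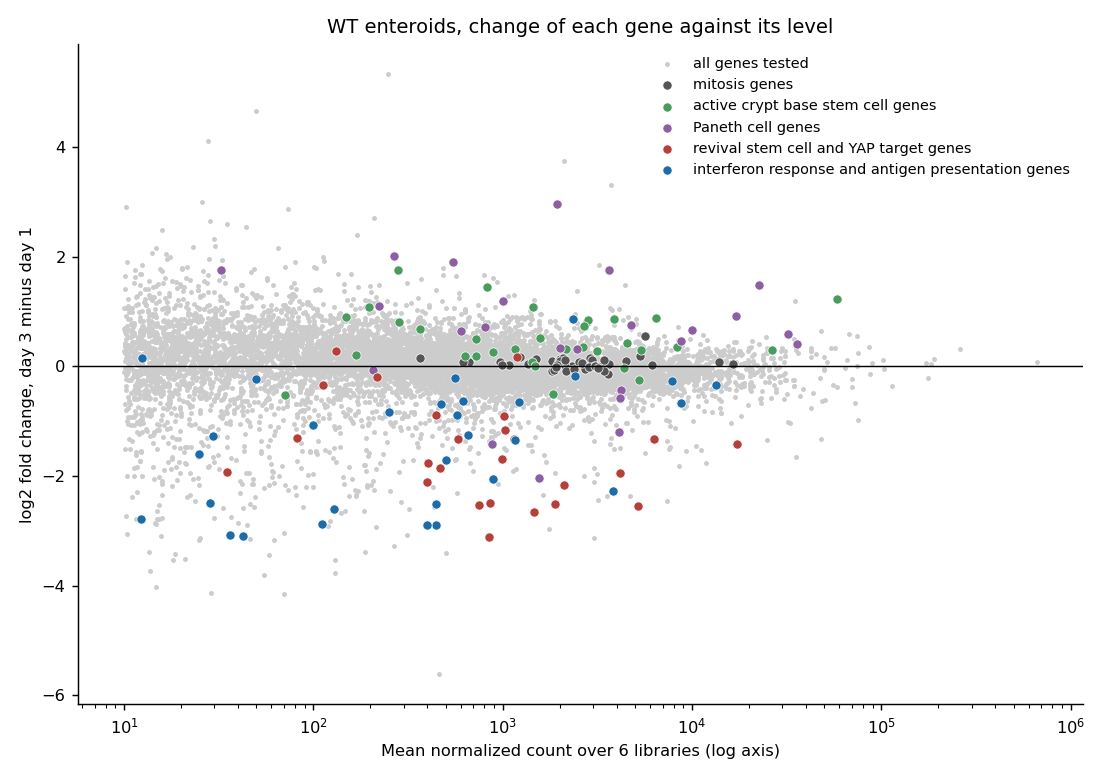
Log2 fold change of each gene between day 3 and day 1 in WT enteroids against its mean normalized count over the 6 libraries (log axis). Grey points are all 12703 genes tested, and coloured points are the members of 5 lists. Mitosis genes (dark grey) lie close to 0, most stem cell (green) and Paneth cell genes (purple) above it, and most revival (red) and interferon genes (blue) below it. Grey points above a log2 change of 3 include transcripts listed at 0 in several day 1 libraries, such as Rnu1a1.

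Most genes of the revival and YAP target list fell from day 1 to day 3, but neither Clu, the gene for which revival stem cells were described, nor the YAP targets Ccn1, Amotl2 and Lats2 passed the test. Sprr1a, a cornified envelope protein of regenerating epithelium (chromosome 3, 92483952 to 92485895, minus strand), was at 1837, 1099 and 1609 normalized counts at day 1 and at 193, 187 and 138 at day 3. The mean was 8.78-fold higher at day 1 (log2 fold change -3.11 ± 0.16, adjusted p = 1.63e-06), and the day 1 values were all far above the day 3 values. Anxa1, an annexin of fetal-like epithelium, was at 895, 456 and 836 and then at 266, 134 and 201 (log2 fold change -1.86 ± 0.11, adjusted p = 3.56e-06). Ly6a, which encodes Sca-1, was at 711, 515 and 635 and then at 228, 148 and 172 (-1.77 ± 0.11). Mouse 2 was the lowest of the 3 at both days for Anxa1 and Ly6a.

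Of 25 tested members of this list 21 fell (19 to 21) and none rose, with a median log2 fold change of -1.69 that was -1.65, -1.34 and -1.67 in mice 1, 2 and 3. Leaving out mouse 3 let 1 member pass as higher. The largest falls after Sprr1a were those of F3, tissue factor (-2.66), S100a6, a calcium-binding protein (-2.55), and Plaur, the urokinase receptor (-2.53), each with no overlap between the days. Clu, clusterin, was at 1393, 887 and 1076 at day 1 and 1442, 974 and 1339 at day 3 (log2 fold change 0.17 ± 0.08, adjusted p = 0.142). Ccn1, a widely used direct YAP target, was at 135, 77.5 and 151 and then at 127, 184 and 121 (0.27 ± 0.26, adjusted p = 0.471). Neither differed beyond its spread, and Amotl2 and Lats2, further YAP targets, had changes of -0.20 and -0.35 that did not pass. All tests were two-sided. Spp1, Gja1, Basp1 and Axl were below the filter, and Ccn2 and Ankrd1 were not analysed here.

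WT crypts, set on 1 scale with the 6 enteroid libraries, show where day 1 stood. Sprr1a had a mean of 16.8 normalized counts in crypts, Anxa1 of 7.99, Plaur of 39.1 and S100a6 of 319, all below both enteroid days. Clu had a mean of 17.3 in crypts and was at 842 to 1294 at day 1 and 905 to 1346 at day 3. Lgr5 had a mean of 283 in crypts, below the day 1 and the day 3 libraries, and Mki67 of 9840. Sprr1a, Anxa1, Plaur and S100a6 were thus highest at day 1, and Lgr5 and Clu had their highest mean at day 3. No test was made of crypts against enteroids.

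**Figure D3:**
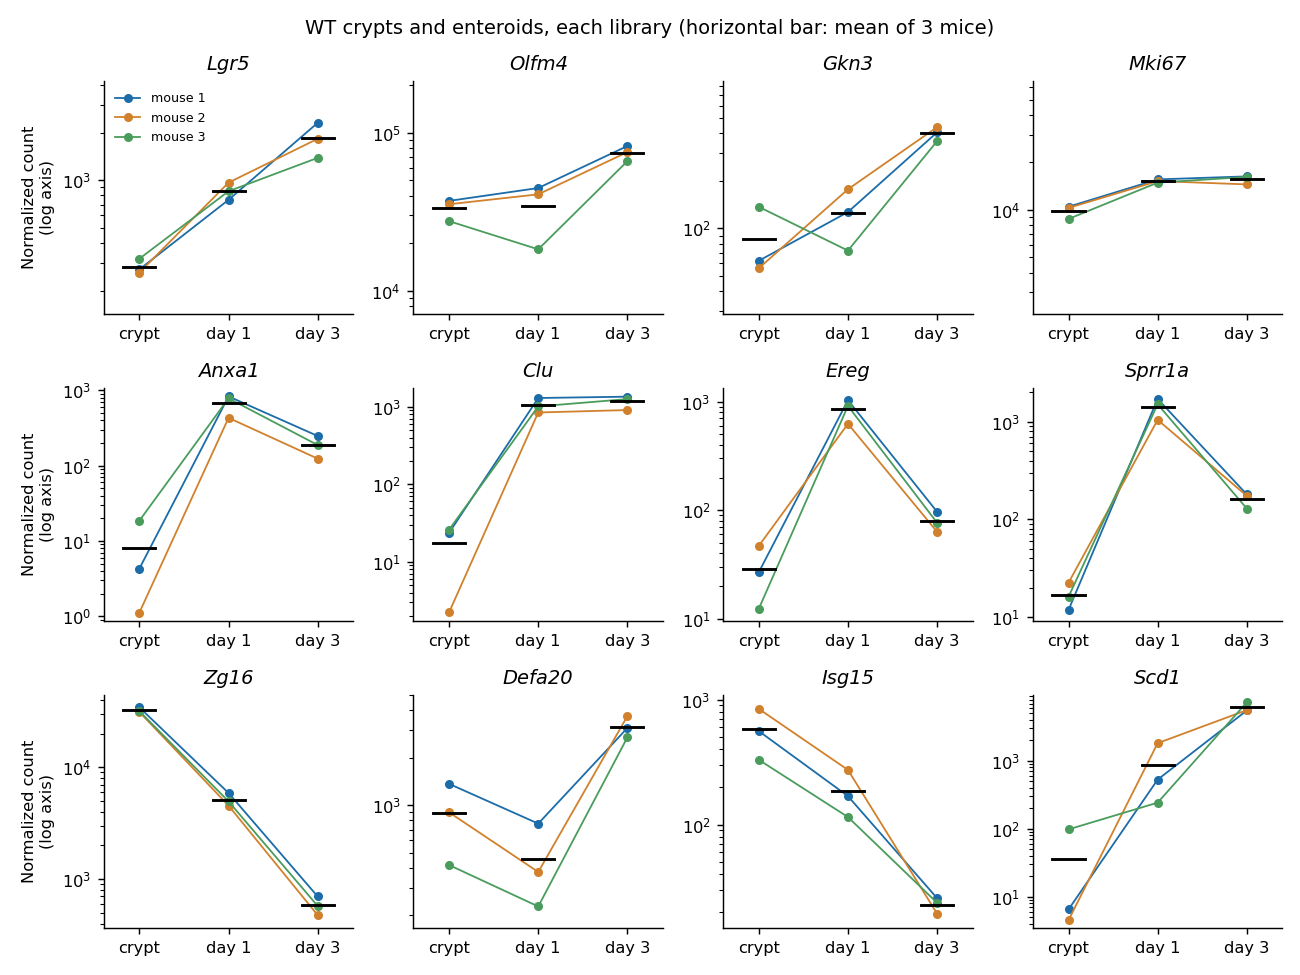
Normalized counts (log axes, each spanning at least a 30-fold range) of 12 genes in WT crypts and in WT enteroids at day 1 and day 3, on the common scale of the 9 WT libraries. Lines join the libraries of 1 mouse and horizontal bars are means of 3. Anxa1, Ereg and Sprr1a are highest at day 1, Lgr5, Defa20 and Scd1 at day 3, and Zg16 and Isg15 are lower at each step.

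Growth factor genes of the EGF family fell along with the revival genes. Ereg, epiregulin (chromosome 5, 91074622 to 91093646, plus strand), was at 1109, 658 and 974 normalized counts at day 1 and at 104, 68.2 and 82.0 at day 3, 10.8-fold higher at day 1 (log2 fold change -3.40 ± 0.12, adjusted p = 1.35e-07). Areg, amphiregulin, fell by 2.96 on the log2 scale, Hbegf by 1.31 and Btc, betacellulin, by 1.28, and all 4 ligands showed no overlap between the days. The receptor Egfr changed less (-0.22, adjusted p = 0.052). Etv4 and Etv5, transcription factors induced through ERK signalling, and the inhibitors Spry1, Spry2 and Lrig1 rose by 0.25 to 0.46. These 5 rises make up the count of members that rose among 19 (0 to 5), and 8 fell (7 to 9). In the BMP list 3 of 17 members fell, Bmp2 by 1.80, Bmp8b by 1.58 and Id4 by 1.55, and 2 rose, Bmp7 by 0.75 and Id3 by 0.41, shares close to those over all genes. The other 12, such as the pathway target Id1 (0.22), did not pass.

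Immediate early genes and extracellular matrix genes followed the same direction. Fosl1, the Fra-1 subunit of AP-1, fell from 227, 149 and 261 to 22.8, 28.4 and 28.4 normalized counts (log2 fold change -2.92 ± 0.22). Of 23 immediate early genes 16 fell (6 to 16), including Dusp1, Klf6, Fos, Atf3 and Egr1, and 3 rose (0 to 3), namely Jun (0.39), Nr4a2 (0.55) and Btg2 (0.59). The falls were 69.6% of the list against 15.0% of all genes, and the rises 13.0% against 12.9%. Without mouse 1 the 16 became 9. Of 24 integrin, laminin and collagen genes 12 fell (5 to 13), led by Lama3 (-2.64), a laminin chain of epithelial attachment, and 3 rose (0 to 5), among them Lama5 (0.62) and the perlecan gene Hspg2 (0.71). Without mouse 1 the 12 became 6 and without mouse 3 they became 7. Of 9 keratins 6 fell (6 under every setting) and none rose, although 1 rose without mouse 3, and the falls ran from Krt20 (-1.59) and Krt23 (-1.43) to Krt19 (-0.77). Among tight junction genes 9 of 16 fell (7 to 10) and none rose, although 1 rose with total count scaling or quantile normalization. Cldn18, a claudin of the stomach, went from 132, 102 and 68.9 to 19.0, 4.74 and 2.03, and Cldn4 fell by 2.44, while Cldn15, the main pore-forming claudin of the small intestine, did not pass (0.04). Cldn18 was near the floor at day 3 in mice 2 and 3 and reached the filter mostly through its day 1 values.

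The largest falls over all genes included members of no list. Among them were Sprr2f (-4.16), another cornified envelope protein, Ly6d (-3.76), Dsg3, a desmoglein of skin (-3.45), and the metalloprotease gene Adam8 (-3.28). Sprr2f was at 182, 70.5 and 151 normalized counts at day 1 and at 5.71, 7.58 and 5.06 at day 3, and it was listed at 0 in all 3 WT crypt libraries, as was Dsg3. Sprr2f was thus near the floor at day 3 and reached the filter, and the mean of 50 for this ranking, through its day 1 values.

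Promoter letters of the revival genes were read next. RefSeq promoters of 300 bases (250 before and 50 after the start, GRCm38.p6, 1 start per gene) were found for 18 of the 25 tested members. TGANTCA, the AP-1 motif, which reads as the same pattern on both strands, was in 8 of the 18 (44.4%) against 7.93% of all 27025 promoters. This motif, and those for the interferon and NRF2 genes below, were chosen after the changes had been seen. The TEAD motif GGAATG, through which YAP acts, was in 6 of 18 on either strand (33.3%), against 14.6% of all promoters. Of these 6, Anxa1, Il33 and Ajuba fell and Ccn1, Amotl2 and Lats2 did not pass. A match describes the letters in this window only. Stretches of the promoters of 3 of the members with the largest falls are shown 5′ to 3′ on the strand of the gene, with the AP-1 letters in capitals, at chr3:121723361-121723438 (F3, plus strand), chr7:24462384-24462450 (Plaur, plus strand) and chr3:92485961-92486057 (Sprr1a, minus strand).
F3: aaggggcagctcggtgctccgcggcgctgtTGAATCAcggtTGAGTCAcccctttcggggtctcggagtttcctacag
Plaur: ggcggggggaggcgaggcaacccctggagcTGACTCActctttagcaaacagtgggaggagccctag
Sprr1a: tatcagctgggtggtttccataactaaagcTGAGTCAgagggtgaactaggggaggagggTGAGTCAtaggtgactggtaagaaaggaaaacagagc
The first copy starts 146 bases before the start of transcription in F3 and in Sprr1a and 69 bases before it in Plaur. For the mitosis genes 38 promoters were found. The CHR motif TTTGAA was in 71.1% of these against 18.1% of all promoters, and CCAAT in 73.7% against 37.9%. The TCF/LEF motif CTTTGAT was in 2 of 11 Wnt target promoters (Sp5 and Mmp7), against 3.72% of all.

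Interferon response and antigen presentation genes made up the other large falling group. Isg15, a ubiquitin-like protein induced by interferon (chromosome 4, 156199424 to 156200818, minus strand), was at 182, 289 and 123 normalized counts at day 1 and at 27.6, 20.8 and 25.3 at day 3 (log2 fold change -2.88 ± 0.27, adjusted p = 7.92e-05). H2-Aa, an MHC class II chain (chromosome 17, 34282744 to 34287823, minus strand), was at 1058, 715 and 348 and then at 155, 74.9 and 53.7 (-2.89 ± 0.14, adjusted p = 1.18e-06). In both genes every day 1 library was above every day 3 library, with mouse 2 highest at day 1 for Isg15 and mouse 1 for H2-Aa. Of 30 members 24 fell (20 to 24), with a median of -1.26 that was -0.98, -1.27 and -1.32 in the 3 mice. The largest falls were those of Nlrc5, the class I transactivator (-3.09), Usp18, which removes Isg15 from proteins (-3.07), and Oasl2 (-2.90), and outside the list Oas3 fell by 3.53. The class I gene H2-K1 fell by 0.35, and the 1 member that rose was Ifitm3, an antiviral membrane protein, by 0.86 ± 0.11. Mean levels in WT crypts were higher still, at 578 for Isg15, 12000 for H2-Aa and 38200 for the invariant chain Cd74.

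Lymphocyte mRNAs were also lower at day 3. The summed level of the 15 immune markers found in the tables was 4766 to 33790 normalized counts in WT crypts, 252 to 728 at day 1 and 128 to 140 at day 3. These markers include the myeloid genes Itgam and Cd68, which held most of the day 3 sum. Itgam was at 80.8, 66.9 and 75.8 and Cd68 at 25.8, 20.3 and 17.1 at day 3, after 18.9, 25.2 and 21.8 for Cd68 at day 1. Of the 8 markers that reached the filter, all but Itgam and Cd68 did so mostly through their day 1 values, so their direction is given as a description. Cd8a was at 14.2, 17.3 and 75.4 at day 1 and at 0.952, 1.90 and 2.03 at day 3, and Ptprc, the pan-leukocyte gene CD45, at 40.7, 39.3 and 165 and then at 11.4, 15.2 and 15.2. Cd7, Gzma and Cd3g likewise had 0.952 to 3.04 normalized counts at day 3, about 1 to 3 reads a library, and Cd3d was at 0 in 2 of the 3. Mouse 3 was the highest for these genes at day 1, but the lowest for Isg15 and H2-Aa. The part of lymphocytes in the change of the interferon genes was not tested.

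The ISRE, the interferon-stimulated response element, was searched on both strands as TTTC, any 2 bases and TTTC, where overlapping copies can share bases. It was in 11 of the 23 promoters found for this list (47.8%) against 3.49% of all promoters. Stretches from 3 of the genes that fell are given with the matched letters in capitals, from chr4:156200845-156200926 (Isg15, minus strand), chr19:34640755-34640843 (Ifit1, plus strand) and chr3:142559969-142560043 (Gbp3, plus strand).
Isg15: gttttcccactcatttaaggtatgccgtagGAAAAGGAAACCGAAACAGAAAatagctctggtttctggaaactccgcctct
Ifit1: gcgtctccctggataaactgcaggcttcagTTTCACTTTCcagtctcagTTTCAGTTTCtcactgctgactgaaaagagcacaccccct
Gbp3: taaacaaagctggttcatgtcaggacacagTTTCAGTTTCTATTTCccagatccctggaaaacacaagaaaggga
Isg15 holds 3 overlapping copies and Ifit1 and Gbp3 hold 2 each. Ifit1 was at 225, 340 and 112 normalized counts at day 1 and at 33.3, 38.9 and 27.3 at day 3, and Gbp3 at 15.3, 33.5 and 18.6 and then at 1.90, 2.84 and 2.03. Gbp3 was thus near the floor at day 3 and reached the filter through its day 1 values. Members of every direction held the motif. Ifitm3, which rose, holds 2 copies and B2m and Stat2, which had log2 fold changes of -0.26 and -0.21 and did not pass, hold 1 each.

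Most Paneth cell genes rose and most goblet cell genes fell. Defa20, an alpha-defensin (chromosome 8, 21509258 to 21510237, plus strand), was at 821, 397 and 243 normalized counts at day 1 and at 3295, 3937 and 2866 at day 3, a 6.91-fold rise of the mean (log2 fold change 2.96 ± 0.23, adjusted p = 2.26e-05). Zg16, a lectin of goblet cell granules (chromosome 7, 127050156 to 127087328, minus strand), was at 6335, 4786 and 5281 and then at 748, 511 and 614, 8.76-fold higher at day 1 (-3.14 ± 0.07, adjusted p = 1.21e-08). The days did not overlap for either gene.

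Of 24 Paneth cell genes 17 rose (11 to 17) and 3 fell (3 to 5), with a median of 0.65 that was 0.70, 1.02 and 0.53 in mice 1, 2 and 3. Lyz1, lysozyme, rose by 0.40 ± 0.12, from 36087, 30115 and 26405 to 45217, 47056 and 30981, with overlap between the days. Ang4, an antimicrobial ribonuclease, rose by 0.76, the intelectin Itln1 by 0.91 and Clps, colipase, by 1.91. The alpha-defensins split, since Defa26 (2.02), Defa17 (1.75) and Defa3 (1.48) rose while Defa38 (-2.04) and Defa29 (-1.20) fell. Defa38 went from 1965, 1666 and 3988 to 422, 612 and 729, so that each mouse had less at day 3. Reads of these near-identical genes on chromosome 8 can be divided among copies by the quantification, so the changes of single defensins are uncertain. This holds for Defa20 too. Many of the 24 members are such defensins, so they do not count as separate results in the 17 rises and the median. Mptx2, a mucosal pentraxin, fell by 1.41, whereas its relative Mptx1 rose by 1.76. Mean crypt levels were 893 for Defa20, 8130 for Defa38 and 64500 for Lyz1.

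Of 21 goblet cell genes 13 fell (10 to 14) and 2 rose (1 to 4), with a median of -0.69 that was -0.85, -0.73 and -0.32 in the 3 mice. Clca1, a secreted mucus protease, fell from 15560, 10405 and 11542 to 2723, 1877 and 2186 (log2 fold change -2.46 ± 0.07), Fcgbp, a mucus scaffold protein, by 1.35 and the trefoil peptide Tff3 by 1.00. Bcas1 (-2.26) and the guanylin gene Guca2a (-1.94) also fell, Klk1, a kallikrein, rose by 0.72, and Spink4, a protease inhibitor of goblet and Paneth cells, did not pass (0.14). Zg16, Clca1 and Fcgbp had crypt means of 32500, 24500 and 95000, above both enteroid days. Among transcription factors of the secretory lineage, Spdef, which drives goblet and Paneth maturation, fell by 0.80, Klf4 by 0.82 and Atoh1, which commits cells to secretory fate, by 0.45 (5 of 24 fell, 3 to 5). Sox4 and Bhlha15, which shapes secretory cells, rose by 0.65 and 0.80 (5 rose, 1 to 5), and Neurog3, the enteroendocrine master factor, did not pass (-0.12). The 5 falls and the 5 rises were each 20.8% of these factors, against 15.0% and 12.9% of all genes.

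**Figure D4:**
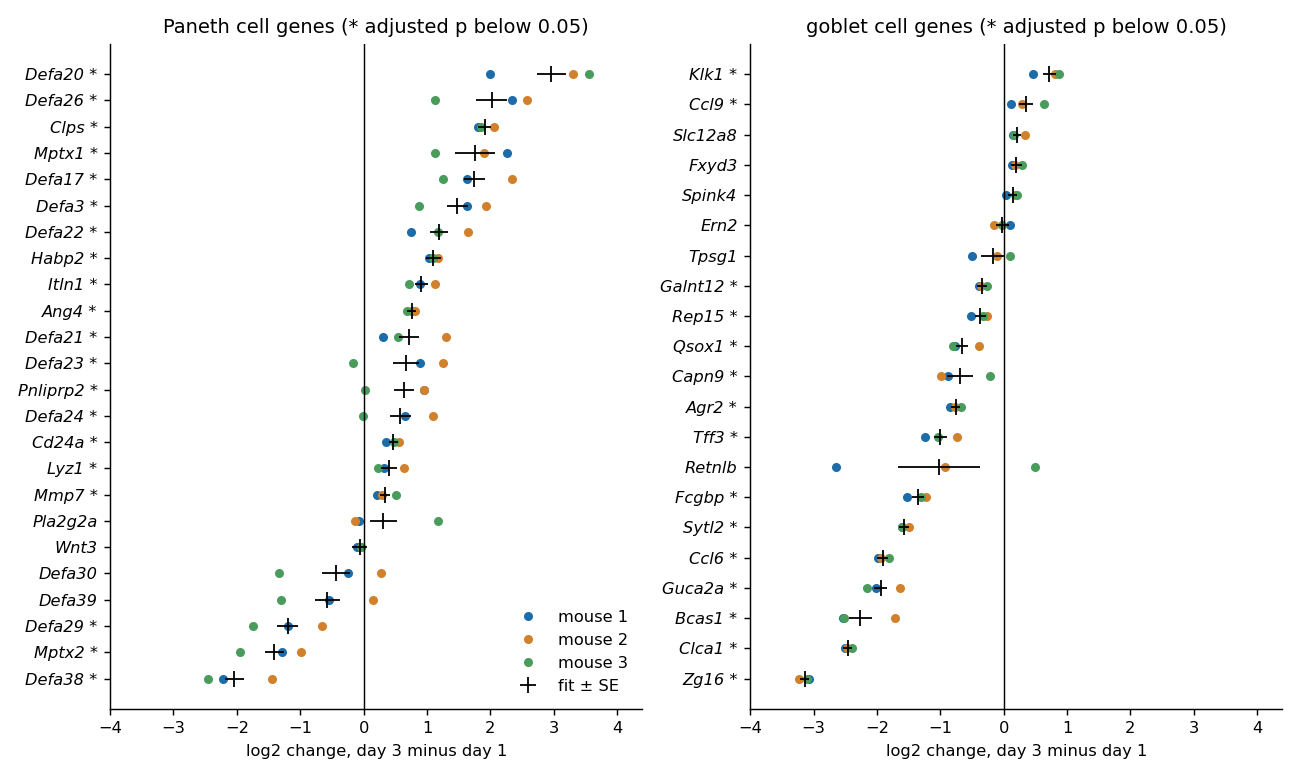
Log2 change from day 1 to day 3 of each tested Paneth cell gene (left, 24 genes) and goblet cell gene (right, 21 genes) in each of the 3 WT mice (points), with the fitted change ± SE (black). Asterisks mark an adjusted p below 0.05. Most Paneth cell genes lie to the right of 0, up to Defa20, and most goblet cell genes to the left, down to Zg16, with the 3 mice close together for the goblet genes of largest change.

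Enteroendocrine and tuft cell genes changed in few members. Chga and Chgb, the chromogranins of hormone granules, rose by 0.31 and 0.29, and Sst, somatostatin, fell from 384, 362 and 431 to 156, 208 and 180 normalized counts (log2 fold change -1.11 ± 0.13). Gip (-0.18) and Sct (0.18) did not pass. In all, 2 of 21 enteroendocrine genes rose (0 to 2), 9.52% against 12.9% of all genes, and 1 fell, with a median of 0.00. Of 22 tuft cell genes 4 fell (1 to 4), 18.2% against 15.0% of all genes, and 1 rose. Dclk1, the defining kinase, did not pass (-0.11).

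Enterocyte genes divided by function. Most genes of fat absorption fell. Apob, the core protein of chylomicrons, was at 51242, 35988 and 41344 normalized counts at day 1 and 26086, 16052 and 21967 at day 3 (log2 fold change -1.02 ± 0.10, adjusted p = 0.000116). Of 23 members 16 fell (8 to 17), including Scarb1 (-1.33), Dgat2 (-1.11) and Apoa4 (-0.85), and 2 rose, Clps and the fatty acid receptor Cd36 (0.94). The count of 16 became 8 without mouse 1. Microvillus genes had 14 of 22 members lower (7 to 14, 9 without mouse 1) and none higher, among them villin (Vil1, -0.70), ezrin (Ezr, -0.83) and the protocadherins Cdhr2 (-0.76) and Cdhr5 (-0.73).

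Brush border enzymes did not share a direction. Lct, lactase, rose from 443, 739 and 686 to 1639, 1085 and 1813 (1.28 ± 0.19, adjusted p = 0.00111) and the meprin subunit Mep1a by 1.24, while its partner Mep1b fell by 1.16. Alpi, alkaline phosphatase, fell by 0.90, the aminopeptidase gene Anpep by 0.53 and the adenosine deaminase gene Ada by 1.90. Sis, sucrase-isomaltase, was at 153859, 113024 and 116722 and then at 102748, 88006 and 105055, all day 3 values lower, and did not pass (-0.37 ± 0.18, adjusted p = 0.154). In all, 6 of 21 fell (5 to 9), 28.6% against 15.0% of all genes, and 4 rose (2 to 5), 19.0% against 12.9%. The median was -0.34, and it was -0.54, -0.47 and 0.12 in mice 1, 2 and 3, so the mice differed in direction too. Without mouse 3, 9 of the enzymes fell. Transporters had 6 of 21 members lower (4 to 7) and 4 higher (1 to 4), the same shares as the enzymes. The falls were led by the thiamine carrier Slc19a3 (-1.46) and the glucose carrier Slc2a2 (-0.71), and the rises by the iron carrier Slc11a2 (0.70). The sodium-glucose carrier Slc5a1 (-0.25) and the fructose enzyme Khk (0.16) did not pass. Among gut transcription factors, Isx, which controls vitamin A uptake, rose by 1.07 and Cdx2 by 0.31 (2 of 19, 0 to 4). Maf fell by 0.64 (1 of 2 that fell, 1 to 2), and Hnf4a (0.06) and Gata4 (-0.07) did not pass. Each direction held 10.5% of these factors, against 12.9% higher and 15.0% lower of all genes. Ion transport genes had 10 of 21 members lower (5 to 11, 6 without mouse 1), such as Guca2b (-0.97) and the carbonic anhydrase gene Car4 (-1.93), and 4 higher (1 to 6), such as Aqp1 (0.53). In the antimicrobial list, the lectin Reg3b fell by 1.85 and Reg3g from 8078, 3859 and 1450 to 982, 930 and 764 normalized counts, while Reg3a rose by 0.82, with 5 of 11 lower (2 to 7) and 2 higher (0 to 4). The lower and higher shares were 47.6% and 19.0% of ion transport genes and 45.5% and 18.2% of the antimicrobial list. Over all genes they were 15.0% and 12.9%.

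A gene of fatty acid synthesis had the largest rise among called genes that averaged 50 counts or more and whose days did not overlap. Scd1, a fatty acid desaturase (chromosome 19, 44394455 to 44407879, minus strand), was at 569, 1921 and 259 normalized counts at day 1 and at 5922, 6023 and 7786 at day 3. Its mean rose 7.18-fold. The fitted log2 fold change, which averages the log2 changes within mice, was 3.31 ± 0.43 (adjusted p = 0.000498). Scd1 had a mean of 36.2 in crypts. The day 1 values of Scd1 spread widely, with mouse 2 highest, while the day 3 values lay close together.

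Of 22 ketogenesis and fatty acid oxidation genes 10 fell (6 to 10, 6 without mouse 1) and none rose, although 2 rose with total count scaling or quantile normalization. They included Pdk4 (-1.94), Angptl4 (-1.08) and Acadl (-0.78), which respond to the fatty acid sensors of the PPAR family, and Cpt1a (-0.44), the entry step of oxidation. Of 32 cholesterol and fatty acid synthesis genes 10 rose (3 to 16), including Tm7sf2 (0.65), Scd2 (0.64) and Fasn (0.57), and 2 fell (1 to 3). The sterol-regulated genes Hmgcs1 (-0.21) and Sqle (-0.04) did not pass. Of 30 glycolysis and hypoxia genes 11 rose (7 to 11, 7 without mouse 1), among them the hypoxia-inducible genes Ankrd37 (1.48), P4ha2 (1.11) and Vegfa (0.76), and 5 fell (2 to 6), among them the glucose carrier Slc2a1 (-0.37) and the hexokinase Hk1 (-0.76). The rises were 36.7% of this list against 12.9% of all genes, and the falls 16.7% against 15.0%. None of 13 genes of the mitochondrial genome passed, with a median of 0.06. Up to 3 were higher under other settings, the most with quantile normalization, and 1 was lower without mouse 3.

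Most antioxidant and xenobiotic genes were lower at day 3. Of 20 antioxidant and NRF2 target genes 16 fell (9 to 17) and 1 rose, catalase (Cat, 0.46), with a median of -0.47 that was -0.59, -0.41 and -0.42 in the 3 mice. The largest falls were those of Slc7a11, the cystine carrier for glutathione synthesis (-1.88), Hmox1, heme oxygenase (-1.76), and Akr1b8 (-1.51). Slc7a11 went from 2217, 1210 and 2153 to 594, 400 and 489, with a crypt mean of 25.4. Of 31 xenobiotic and bile acid genes 19 fell (12 to 19, 13 without mouse 1), 2 rose and 10 did not pass, with a median of -0.45. Cyp1a1, the cytochrome induced through the aryl hydrocarbon receptor, went from 313, 127 and 590 to 43.8, 12.3 and 33.4 (-3.39 ± 0.24), Cyp2c29 and Cyp3a11 fell by 1.55 and 1.42 and the ileal bile acid carrier Slc10a2 by 1.98. Sult1c2, a sulfotransferase, rose by 1.91.

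The antioxidant response element was searched as TGACNNNGC on both strands and was in 7 of 16 promoters found for the NRF2 list (43.8%) against 12.5% of all promoters. It is shown in capitals, here read on the opposite strand, in Gclm (chr3:122245393-122245461, plus strand) and G6pdx (chrX:74428899-74428967, minus strand).
Gclm: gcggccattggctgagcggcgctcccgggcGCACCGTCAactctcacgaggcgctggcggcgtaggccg
G6pdx: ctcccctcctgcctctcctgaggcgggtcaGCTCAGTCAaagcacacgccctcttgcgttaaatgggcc
Gclm, a subunit of the enzyme that starts glutathione synthesis, went from 5849, 5968 and 7961 normalized counts to 5150, 4395 and 5960. It fell by 0.35 ± 0.08 on the log2 scale with overlap between the days. G6pdx, which supplies NADPH, went from 7793, 6203 and 7328 to 5309, 5162 and 5445 and fell by 0.42 ± 0.08.

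Most called unfolded protein response genes fell, while p53 targets and cell death genes changed in both directions. Of 28 unfolded protein response genes 11 fell (2 to 12), among them the chaperone Hspa5 (-0.44), and 2 rose, Ddit4 (0.53) and the asparagine synthetase gene Asns (0.26). The falls were 39.3% of this list against 15.0% of all genes, and the rises 7.14% against 12.9%. Without mouse 1, 2 or 3 the 11 became 3, 5 and 4. Of 30 p53 targets 8 fell (4 to 9), including Plk2 (-1.17), Pmaip1 (-0.85) and Mdm2 (-0.26), and 5 rose (1 to 6), including Ddb2 (0.67). These were 26.7% and 16.7% of the targets, against 15.0% and 12.9% of all genes. Of 35 cell death genes 14 fell (6 to 15), 40.0% against 15.0% of all genes, and 9 rose (2 to 9, the lowest without mouse 1), 25.7% against 12.9%. The necroptosis genes Zbp1 (-2.14) and Mlkl (-0.98) were among the former, and the gasdermins Gsdmc2 (1.38), Gsdmc3 (1.32) and Gsdmc4 (1.21) among the latter. Gsdmc2 went from 201, 295 and 215 to 602, 406 and 936, with no overlap. Ribosome biogenesis genes had 4 of 33 members lower (0 to 4), 12.1% against 15.0% of all genes, and 1 higher. Chemokine and NF-kB genes had 7 of 16 lower (4 to 9), 43.8%, led by Ido1 (-2.52), and 2 higher, 12.5% against 12.9% of all genes.

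**Figure D5:**
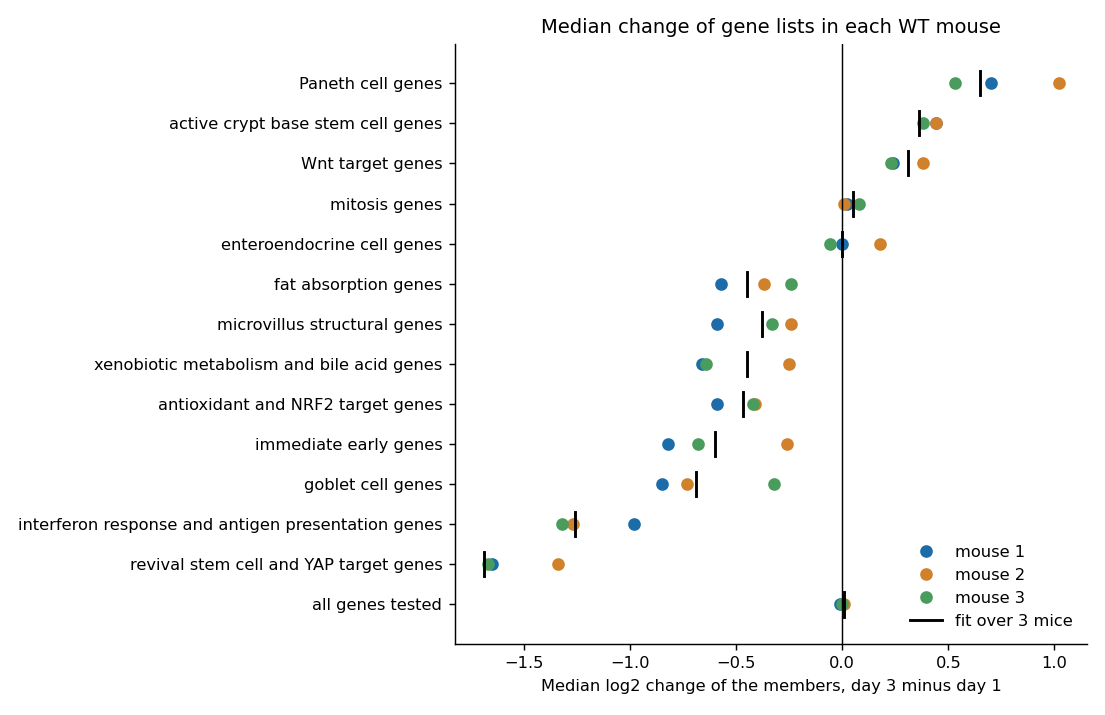
Median log2 change of the members of 13 lists and of all genes tested, from day 1 to day 3, in each of the 3 WT mice (points) and in the fit over 3 mice (bars). The stem cell and Wnt target lists share many members. The 3 mice share the direction for stem cell, Wnt target and Paneth cell genes (above 0) and for the 8 lists from fat absorption to revival genes (below 0), and mouse 2 changed least for revival and immediate early genes.

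Mtgr1 itself, listed as Cbfa2t2, did not pass the test in WT enteroids. Cbfa2t2 was at 877, 789 and 840 normalized counts at day 1 and at 923, 824 and 924 at day 3 (log2 fold change 0.09, adjusted p = 0.402), and its relatives Cbfa2t3 (0.16) and Runx1t1 (0.08) did not pass either.

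The change from day 1 to day 3 differed between WT and Mtgr1-/- enteroids in 166 of 12685 genes (1.31%), by the interaction of day and genotype with limma over 12 libraries. In 146 of them (1.15%) the change was higher and in 20 (0.158%) lower in the Mtgr1-/- cultures. Ly6a and Anxa1, which fell in WT, had log2 changes of 0.41 and 0.49 in Mtgr1-/- enteroids. Anxa1 in Mtgr1-/- libraries was at 1844, 2016 and 1323 normalized counts at day 1 and at 2819, 2297 and 2101 at day 3, so that its change was 2.35 ± 0.17 higher on the log2 scale than in WT (adjusted p = 0.00158). For Ly6a the difference was 2.18 ± 0.20 (adjusted p = 0.00278). Both passed with any 1 of the 6 mice left out. The differences of Olfm4, Clu, Ang4, Clca1 and Sis also passed, but each lost its call in some leave-outs. Lgr5, which rose in WT, was at 60.1 to 100 and then at 66.9 to 102 in the Mtgr1-/- libraries, and the difference of its changes did not pass (-1.06 ± 0.30, adjusted p = 0.21). Without Mtgr1-/- mouse 2, 2802 genes passed, Lgr5 among them (adjusted p = 0.0385), and without WT mouse 1 it was 21 genes.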

How the data were processed

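Bulk RNA-seq had been made from WT and Mtgr1-/- duodenal crypts and enteroids, 3 mice per group. The authors trimmed reads with fastp 0.20.0, quantified them on mouse transcripts of GENCODE vM21 with Salmon 1.3.0 and normalized with DESeq2 1.26.0. Each deposited table, 1 for each time, holds gene signal values that the authors made by dividing estimated read counts by 1 size factor for each library. Further deposited columns hold the authors' own comparisons of the genotypes (log2 fold change with its error, a test score, p-values), and these were not used.

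Every value was a whole multiple of the smallest value above 0 of its library (100.0%, tolerance 0.01), and division by it gave whole counts. The step lay close to 1 in the second library of the WT crypts and of the Mtgr1-/- day 3 enteroids. Since the tables had been normalized separately, the counts were joined by gene ID (17759, 17423 and 17612 genes, 16414 shared) and scaled together by TMM. The 6 WT enteroid libraries had a median of 26673042.5 reads, and all their 16414 gene IDs were found in the annotation.

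Log2(normalized count + 1) was tested with limma 3.58.1 in R 4.3.3, with a variance trend, the mouse as a block, a mean of at least 10, and Benjamini-Hochberg adjustment over all genes tested, which covers every adjusted p in the text. SE is that of the fit. The design called for this test on the signal unit, and edgeR 4.0.16 and DESeq2 1.42.0 on the recovered counts were alternatives. The interaction of day and genotype was fitted over 12 enteroid libraries with 6 mice as blocks. WT crypts were scaled with the 6 libraries for description only. The block rests on the mouse numbers of the labels, since each animal gave all its times. Deviations from the day means correlated at 0.186, 0.197 and 0.606 for mice 1, 2 and 3 over 10378 genes. Those of mice 1 and 2 correlated more across these animals (0.258 and 0.267) than within them. The correlations thus do not show the pairing of mice 1 and 2. On simulated counts for 12683 genes of this comparison, limma recovered 99 of 100 genes changed by a log2 of 1 and 100 of 100 changed by 2, with 5 others called. In the simulation only 200 genes changed, all genes had the same dispersion (spread beyond counting) and each mouse kept its deviation at both days. The real data differ in this, so these numbers do not measure the error of the calls above.

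Genes were named by rule: lead genes of each list, up to 4 largest called rises and falls in each list with no overlap between the days, and the 10 largest over all genes with a mean of at least 50 and the same direction in 3 mice. Further list members are named as examples after their values were seen, most of them to say which members made up a count or did not pass. Members, lists, rule and tests were chosen with earlier results of these data known. Alternatives were other scalings, pseudocounts of 0.1 and 8, other filters and joins, no block, no trend, array weights, the count tools and each mouse left out. Promoters came from RefSeq. Muc2 is not analysed here.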

Additional observations from a re-analysis of the deposited data

Results flagged for a closer look

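Among the lead genes of the lists there were 7 in which the change from day 1 to day 3 differed between the genotypes by the interaction test of limma. The difference, Mtgr1-/- minus WT on the log2 scale, was 2.35 for Anxa1 (adjusted p = 0.00158) and 2.18 for Ly6a (adjusted p = 0.00278), and both passed with each of the 6 mice left out in turn. For Olfm4 it was 2.45 (adjusted p = 0.00859), from WT levels of 18386 to 44384 and 65854 to 82090 at the 2 days and Mtgr1-/- levels of 7.2 to 10.7 and 99.6 to 198. The call was lost without WT mouse 1 (adjusted p = 0.0714) and without WT mouse 2 (adjusted p = 0.0537).

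For Ang4 the difference was 1.08 (adjusted p = 0.00843), and it was lost without each WT mouse (adjusted p = 0.0514 to 0.0714). For Clca1, which fell by 2.47 in WT and changed by -0.81 in Mtgr1-/- cultures, it was 1.66 (adjusted p = 0.0364). For Clu it was 1.76 (adjusted p = 0.0393), with a log2 change of 0.16 in WT and 1.92 in Mtgr1-/- enteroids. For Sis it was 1.47 (adjusted p = 0.0402), with -0.37 and 1.09. Without a WT mouse the adjusted p of Clca1, Clu and Sis lay between 0.128 and 0.21. Their calls were also lost without Mtgr1-/- mouse 1 (adjusted p = 0.0696, 0.121 and 0.163), and that of Sis without Mtgr1-/- mouse 3 (adjusted p = 0.0532). In the Mtgr1-/- cultures Ang4 and Clca1 started from 51.6 to 246 and 565 to 856 normalized counts, far below WT.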

How the results depend on the processing

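No called gene changed sign under any of the 16 alternatives, and the count of 3552 called genes (1641 higher, 1911 lower) lay within 1.5 times under all except 2. Without a variance trend it was 1516 (716 higher, 800 lower), and with a mouse left out 1594 to 2769 (684 to 1335 higher, 910 to 1452 lower), the lowest without mouse 1. Without the replicate block 2761 genes were called (1233 higher, 1528 lower), of which 2738 were also called with it. Of 250 called named genes, 91 lost their call without a trend, 68, 35 and 34 without mouse 1, 2 and 3, and 27 without the block. Total count scaling moved the share of higher genes among the calls from 46.2% to 56.4%.

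For the difference between genotypes (166 genes, 146 higher and 20 lower), 66 genes passed without the replicate block (57 higher, 9 lower). With 1 mouse left out it was 21 to 2802 genes (21 to 1589 higher, 0 to 1213 lower), lowest without WT mouse 1 and highest without Mtgr1-/- mouse 2. The cause of these shifts was not tested. Depth was at least 22035316 reads in each of the 6 WT enteroid libraries, and genes below a mean of 10 were not tested.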

Other observations

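Other genes with large changes had no place in the lists. Plekhd1 rose by 2.87, Bst1, an ectoenzyme of NAD metabolism, by 2.15 and Stc2, a secreted stanniocalcin, by 1.93, each with no overlap between the days in 3 mice. Some larger fitted values, such as that of the small nuclear RNA gene Rnu1a1 (5.33), came from transcripts listed at 0 in some libraries, and the days overlapped.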
